A study of Canis lupus familiaris with 36 samples.

Results

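MiR-21 (cfa-miR-21) was measured by small RNA sequencing in 12 canine heart libraries, 6 from cardiac hemangiosarcoma (HSA) and 6 from control heart, and is 1 of the 453 mature miRNAs in the count table. Its row was found by name in that table, and miR-21 was chosen with earlier results of these data known. HSA is a malignant tumor of cells of the vessel lining that is common in dogs and often arises in the spleen and the heart. The libraries were made from total RNA of formalin-fixed, paraffin-embedded (FFPE) sections, with 1 library per dog. The HSA dogs had a histological diagnosis of cardiac HSA, and the control hearts came from dogs without neoplasia. According to the study the HSA dogs were older than the controls, earlier chemotherapy was not a reason for exclusion, and whole tumor tissue was used, so that these differences cannot be told apart from the tumor itself. The titles call the groups Cancer heart and Healthy heart, whereas their treatment entries in the labels are reversed for every heart sample. The titles were followed here, and every direction below rests on them. The splenic libraries were not analysed here, and miR-21 was not on the qPCR panel of the study.

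MiRNAs are short RNAs that guide Argonaute proteins to messenger RNAs by pairing of a short seed at their 5′ end, which lowers translation and stability of the target. MiR-21 is among the most widely studied of them. It is raised in most solid tumors, and its known targets include PDCD4, SPRY1 and RECK, which restrain translation, ERK signaling and matrix proteases, respectively. Its gene is induced by STAT3 and AP-1, and in the heart miR-21 is known from fibroblasts and from fibrosis after injury. No table with miRNA sequences was used here, so the sequence is not shown. In the gene table of another dog assembly, UU_Cfam_GSD_1.0, PTRH2 and TUBD1 are the nearest listed protein-coding genes that do not overlap the miR-21 gene. They lie on either side of it, and protein-coding genes that overlap it were not looked up. Coordinates are not given, because the files were made with CanFam3.1.

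Depth differed between the groups. With 1 entry per mature miRNA, the control libraries held 5544912 to 9336949 counts and the HSA libraries 1656084 to 7254770. MiR-21 itself was covered by 32568 to 63002 counts in control and by 101732 to 573927 in HSA, so counting error was small beside the spread between dogs. MiR-1, miR-133, miR-206, miR-208 and miR-499, which are made in heart and skeletal muscle, together took 20.2 to 27.9% of the counts in control. In HSA they took 25.6, 5.38, 0.122, 5.78, 14.0 and 27.4% in libraries 1 to 6. Libraries 1 and 6 thus lay within the control range for muscle miRNAs, and library 3 was almost without them. None of the 8 muscle entries was called in the test described below, and their median log2 fold change was -1.28. Of these entries, miR-133a and miR-133c had nearly equal counts in every library, each with a mean share of 7.64% in control. Both are counted in the library totals and in every muscle sum and muscle ratio given here, which they raise accordingly. MiR-126, the miRNA of endothelial cells, had 3780 ± 729 TMM-normalized CPM (counts scaled to a common library size, mean ± SD, n = 6) in control and 2660 ± 1790 in HSA, with an adjusted p of 0.272 in edgeR's quasi-likelihood test. Its log2 fold change was -0.51 with TMM and 0.03 by library size only. In HSA library 3, miR-122, the main miRNA of liver cells, took 26.5% of the counts, against 0.00986 to 0.0595% in the other HSA libraries. In bulk tissue, fewer cells of a type and less RNA per cell cannot be told apart.

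MiR-21 rose from under 1% of the miRNA counts in every control heart to between 2.82 and 15.7% in HSA. In control its share of all miRNA counts was 0.595, 0.607, 0.675, 0.473, 0.471 and 0.587% in libraries 1 to 6. In HSA it was 7.93, 15.7, 13.3, 5.48, 2.82 and 2.99% in libraries 1 to 6. The groups did not overlap, and the lowest HSA library was 4.18 times the highest control library. Among the 225 tested miRNAs, 22.7% had a share in all HSA libraries above every control library. The 95% Wilson interval of the highest HSA share was 15.64 to 15.72% and that of the lowest 2.801 to 2.835%, which covers counting error only, since reads copied by PCR are not independent molecules. The mean share was 0.568 ± 0.0805% (SD, n = 6) in control and 8.03 ± 5.39% in HSA, a ratio of 14.1, and the ratio of the medians was 11.4. In a two-sided exact permutation test the difference of 7.47 percentage points had p = 0.00216, which is the smallest value that 6 libraries against 6 can give.

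**Figure D1:**
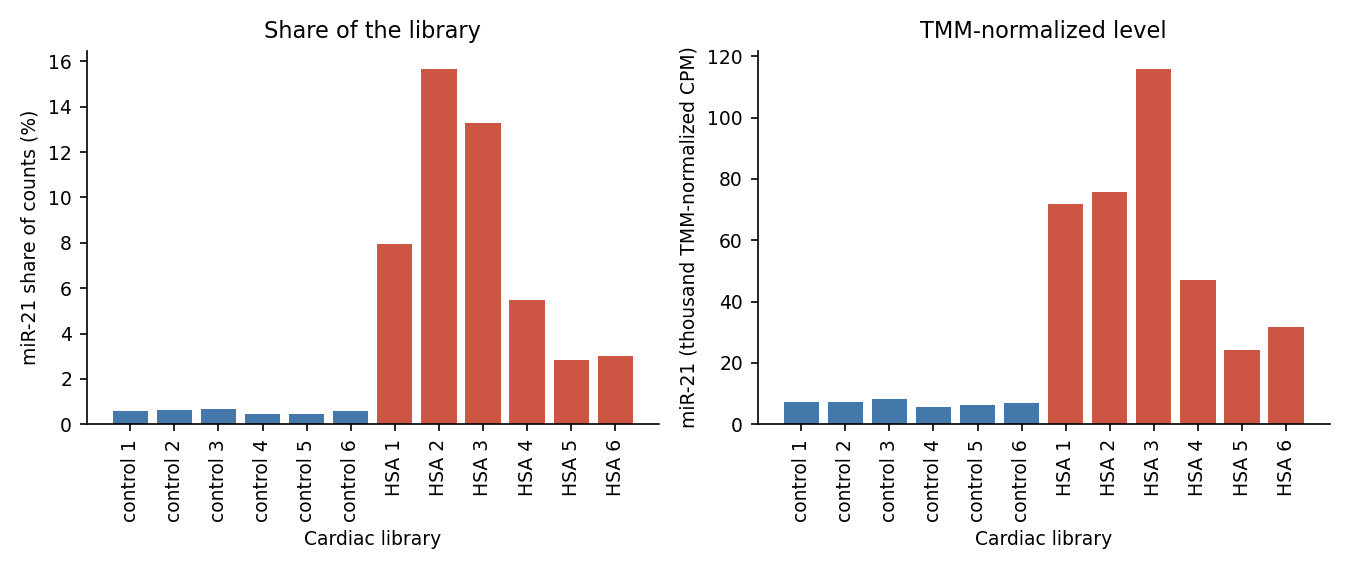
MiR-21 in each of the 12 heart libraries, with control in blue and HSA in red. Bars give the share of all miRNA counts in percent (left) and the TMM-normalized CPM divided by 1000 (right), 1 bar per library, on linear axes from 0. All HSA libraries lie above every control library, and the control libraries lie close together while the HSA libraries range from 2.82 to 15.7%.

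The level of miR-21 was even among control hearts and uneven among tumors. Its highest share was 1.43 times its lowest in control and 5.56 times its lowest in HSA. The coefficient of variation was 14.2% in control and 67.1% in HSA. After TMM normalization, which scales libraries so that most miRNAs are level between them, the 6 control libraries had 7310, 7177, 8319, 5710, 6167 and 7050 CPM. The 6 HSA libraries had 71820, 75860, 116000, 47150, 24120 and 31760 CPM. HSA libraries 1, 2 and 3 were the highest and libraries 5 and 6 the lowest on both scales, but library 2 led by share and library 3 led by normalized CPM. The TMM factor of library 2 was 2.07, while those of the other HSA libraries were 0.943 to 1.18. Relative to the control mean, library 2 was 27.6 times higher by share and 10.9 times higher by normalized CPM. The lowest tumor, library 5, was 4.96 times the control mean by share and 3.47 times by normalized CPM.

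The deposited CPM values are scaled to all 517 entries, and a read of a miRNA with several precursors is counted there more than once, so that they lie below the shares given above. On that scale the HSA libraries held 56034, 117095, 112195, 41911, 20375 and 20839 CPM of miR-21. The control libraries held 3278 to 4706 CPM, again without overlap. The means were 61410 ± 43400 in HSA and 3936 ± 539 in control (SD, n = 6 each).

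By place, miR-21 moved from the middle of the abundant miRNAs to their top. It was the 26th to 30th most abundant mature miRNA in the control libraries, and by mean share it was the 27th. In HSA libraries 1 to 6 it was the 4th, 1st, 2nd, 4th, 10th and 12th, and by mean share the 3rd. MiR-30d, a miRNA abundant in heart muscle, was first in all 6 control libraries with 9.88 to 15.4% of the counts. In HSA the leading miRNA differed between tumors. MiR-143, typical of smooth muscle and fibroblasts, led in libraries 1 and 5, miR-21 in library 2, miR-122 in library 3, let-7a in library 4 and miR-30d in library 6. MiR-143 was above miR-21 in 4 of the 6 HSA libraries, and let-7a and let-7f in 3. MiR-26a and let-7g were above it in 2. All of these were above miR-21 in all 6 control libraries.

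No other miRNA gained as large a share. The mean share of miR-21 rose by 7.47 percentage points between the groups, ahead of miR-122 with 4.44 points, miR-143 with 2.44 and let-7f with 2.13. After TMM normalization miR-143 and let-7f did not rise, with log2 fold changes of -0.10 and -0.06. The gain of miR-122 came almost wholly from library 3, as its SD in HSA of 10.8 points around a mean of 4.45% shows. The largest loss was that of miR-30d, from 11.9 to 4.11%. MiR-133a and miR-1 lost 3.40 and 2.85 points.

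The quasi-likelihood test of edgeR gave miR-21 an 8.79-fold higher level in HSA, which is 3.14 ± 0.37 on the log2 scale (estimate and standard error), with an adjusted p of 0.00035 among 225 tested miRNAs. A miRNA was called when its adjusted p was below 0.01 and its levels differed by at least 1 on the log2 scale. MiR-21 had the lowest adjusted p of all tested miRNAs in this test, although with DESeq2 that of miR-375 was lower (1.48e-16 against 3.49e-16). Its log2 fold change in edgeR was the 18th highest. With these thresholds 38 miRNAs were called higher and 16 lower, so 24% of the tested miRNAs were called, 16.9% as higher and 7.11% as lower. Over all tested miRNAs the log2 fold change had a median of 0.28. By normalized CPM, 12.4% of the tested miRNAs were higher in all HSA libraries than in every control library, miR-21 among them, and 13.8% were lower in all of them.

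Most miRNAs called higher were scarce, and miR-21 was not. Of the 38, 9 had a mean of at least 1000 normalized CPM in HSA. They were miR-21 with 61130 CPM, miR-122 with 38810, miR-10a with 10020, miR-7 with 4896, miR-375 with 4125, miR-148a with 3110, miR-192 with 2370, miR-146a with 1785 and miR-194 with 1335. Only miR-21, miR-375 and miR-146a of these were called in all 12 fits that left out 1 library. The calls of miR-122, miR-10a, miR-192 and miR-194 were lost without any 1 of the 6 control libraries, that of miR-7 without any 1 of control libraries 1 to 5, and that of miR-148a without any 1 of the 6 control libraries or HSA library 2, 3 or 5. Among the 26 tested miRNAs with a mean over both groups of at least 10000 CPM, 2 were called higher, miR-21 and miR-122, 5 were called lower and 19 were not called.

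**Figure D2:**
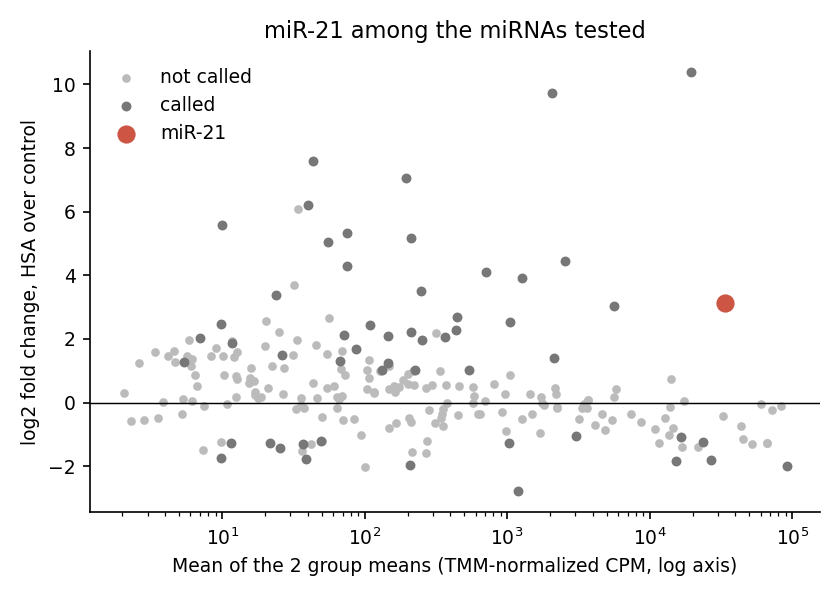
Each of the 225 tested miRNAs is 1 point, with the mean of both group means in TMM-normalized CPM (log axis) against its log2 fold change, HSA over control. Called miRNAs are dark and miR-21 is red. MiR-21 combines a log2 fold change of 3.14 with a mean of 61130 CPM in HSA, a level that no other miRNA called higher reached.

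Ratios within a library do not depend on its depth or on a scaling factor, and 4 such ratios were formed. The study chose miR-8859a, miR-8859b and miR-8884 as candidate normalizers from its sequencing data, because they differed little between the groups. A ratio to them is therefore not independent support for the difference of miR-21. Against their geometric mean, miR-21 was 42.1 to 65.8 times as abundant in control. In HSA it was 640, 684, 796, 338, 203 and 289 times as abundant in libraries 1 to 6. The mean log2 ratio was 5.79 ± 0.26 in control and 8.77 ± 0.80 in HSA (SD, n = 6 each), a 7.89-fold difference. Against miR-126 it was 1.61 to 1.99 times as abundant in control and 6.85 to 85.7 times in HSA, a 12.9-fold difference of the means on the log2 scale. Both ratios were higher in every HSA library than in every control library.

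Against the summed muscle miRNAs the mean log2 ratio was -5.40 ± 0.20 in control and 0.17 ± 3.64 in HSA, a 47.7-fold difference with a large spread among tumors. The muscle miRNAs differ in share between the tumors, so miR-21 was also taken as a part of the counts outside the muscle list. It made up 0.593 to 0.886% of these counts in control and 10.7, 16.6, 13.3, 5.82, 3.28 and 4.12% in HSA libraries 1 to 6. HSA libraries 1 and 6, whose muscle share lay within the control range, were 10.7 and 4.12% against a control mean of 0.750%. Each of the 4 ratios had p = 0.00216 in the two-sided exact permutation test, also after Benjamini-Hochberg adjustment over the 4, and this is the smallest p possible.

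**Figure D3:**
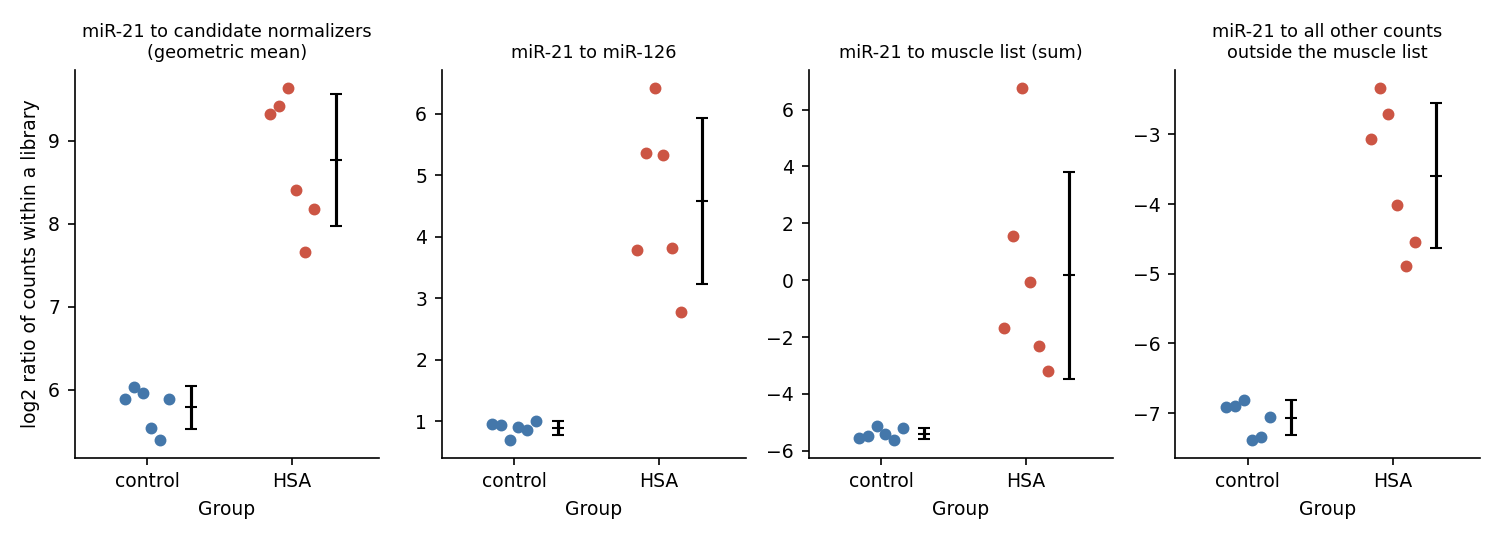
The log2 ratio of miR-21 to 4 references counted in the same library, with dots for the libraries and a bar for the mean ± SD of 6 control and 6 HSA libraries. The HSA libraries lie above every control library for each reference, with differences of the means from 2.98 to 5.58, and the spread in HSA is widest against the muscle list.

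The ratio of miR-21 to each of the other 224 tested miRNAs was taken in the same way. For 146 of them, 65.2%, every HSA library exceeded every control library. For 78 the groups overlapped, and 31 of these 78 were themselves called higher. No ratio was lower in all HSA libraries. The mean difference was positive for 212 and negative for 12, with a median of 2.88 on the log2 scale.

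White blood cells also contain miR-21, and miRNAs typical of them also had higher mean levels in HSA. Among the tumors they did not follow miR-21 throughout. HSA library 1 had the lowest share of them, 0.0778%, with 7.93% of its counts in miR-21. MiR-142, miR-150, miR-223 and miR-155, of which miR-142 is found across blood cells and miR-223 in myeloid cells, together took 0.0292 to 0.0441% of the counts in control and 0.0778 to 0.877% in HSA. MiR-223 rose by 3.49 on the log2 scale (adjusted p = 0.000747), miR-142 by 2.07 (adjusted p = 0.00235) and miR-150 by 2.27 (adjusted p = 0.00903) in edgeR's test. MiR-155 had a log2 fold change of 2.20 with an adjusted p of 0.0108 and was not called. The call of miR-142 was lost without control library 5, and that of miR-150 in 9 of the 12 fits that left out 1 library, any 1 of the controls or HSA library 2, 3 or 4. The ratio of miR-21 to the sum of these 4 was 13.3 to 19.6 in control and 102, 17.9, 47.0, 11.1, 23.7 and 29.3 in HSA libraries 1 to 6. HSA library 4 lay below every control library and library 2 among them, so this ratio did not separate the groups. This comparison was added after the values had been seen. The part of white blood cells in the level of miR-21 was not tested.

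The miRNAs of other cell types were taken in the same way. The mesenchymal miRNAs miR-143, miR-145, miR-199 and miR-214 took 6.60 to 9.47% of the counts in control and 7.48 to 19.0% in HSA, and 0 of the 4 were called, with log2 fold changes from -0.22 to 0.16 with TMM. By library size only, miR-143 turned from -0.10 to 0.43, miR-199 from -0.16 to 0.48 and miR-214 from -0.22 to 0.45, while miR-145 went from 0.16 to 0.70. The erythroid miRNAs miR-144, miR-451 and miR-486 took 2.24 to 3.19% in control and 0.844 to 6.84% in HSA. MiR-144 rose by 1.69 on the log2 scale (adjusted p = 0.00544), a call that was lost in 9 of the 12 fits without 1 library, those without control library 1, 2, 4, 5 or 6 or HSA library 1, 2, 3 or 4. MiR-486 had 17900 to 31600 CPM in control and 2640 to 16500 CPM in HSA, without overlap, at a log2 fold change of -1.40 (adjusted p = 0.0168), and was not called. MiR-451 had a log2 fold change of 0.74 (adjusted p = 0.238). The 7 epithelial miRNAs of the miR-200 family with miR-203 and miR-205 took 0.000832 to 0.00214% in control and 0.00507 to 0.485% in HSA. Of these, 3 were tested and 2 called higher, against 16.9% of all tested miRNAs. They were miR-200c, which was no longer called when 1 control library, whichever it was, was left out, and miR-203. The hepatocyte miRNAs miR-122, miR-192 and miR-194 took 0.0169 to 0.0268% in control and 0.0457 to 28.1% in HSA, with the highest value in library 3, and all 3 were called higher, against the same 16.9%. Their part in the level of miR-21 was not tested. Without HSA libraries 3 and 5, which held the highest hepatocyte and epithelial shares, the mean share of miR-21 was still higher in HSA by 7.46 percentage points (exact permutation p = 0.00952, the smallest possible with 4 against 6).

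MiR-21 belongs to a set of miRNAs that are induced by inflammation and growth factors, and most of this set rose with it. This list, like the others, was drawn from general knowledge with earlier results of these data known. Of its 8 miRNAs 7 were tested and 5 were called higher, against 16.9% of all tested miRNAs. None was called lower, and the median log2 fold change was 2.45 against 0.28 for all tested miRNAs. MiR-146a and miR-146b, which dampen NF-κB signaling, rose by 2.54 and 2.68 on the log2 scale, each with an adjusted p of 0.000983 in edgeR's test. MiR-132 and miR-212, which share 1 cluster that responds to CREB, rose by 2.45 (adjusted p = 0.000983) and 2.46 (adjusted p = 0.00208). These 4 were called in all 12 fits that left out 1 library. MiR-221, which targets KIT and CDKN1B, rose by 1.03 (adjusted p = 0.00479), a call lost in 8 of those fits, without control library 1, 2, 3, 4 or 5 or HSA library 1, 3 or 4. MiR-222 had a log2 fold change of 0.87 with an adjusted p of 0.00395. MiR-155 is described above, and miR-147 was too low to be tested.

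Of 18 miRNAs often raised in solid tumors, 17 were tested, 7 were called higher and 0 lower, against 16.9% and 7.11% of all tested miRNAs. MiR-155, miR-221 and miR-222 are also on the list of induced miRNAs, and the call of miR-221 is counted in both. The median log2 fold change of the 17 was 1.03, against 0.28 over all tested miRNAs. Of the miR-17-92 cluster, which drives proliferation, only miR-18a, miR-19a and miR-19b were called. They rose by 1.48, 1.24 and 1.32 on the log2 scale, and miR-106b rose by 1.01. MiR-182 and miR-183, from 1 cluster, rose by 5.32 and 5.06, and their means in HSA were 147 and 107 CPM. The HSA libraries were very uneven, from 14.0 to 672 CPM for miR-182 and from 9.79 to 515 CPM for miR-183. When 1 library was left out, their log2 fold changes fell to as low as 3.52 and 3.00. DESeq2 gave no adjusted p for either. Of the miRNAs called from this list, miR-19a and miR-182 were called in all 12 fits without 1 library. The call of miR-18a was lost without control library 5, that of miR-183 without control library 1, 2, 4 or 5, that of miR-19b without control library 1, 2, 4, 5 or 6 or HSA library 1, and that of miR-106b without control library 4, 5 or 6 or HSA library 1, 2, 3 or 4. The seventh was miR-221. MiR-31 had 382 ± 146 CPM in control and 166 ± 111 CPM in HSA (SD). Its log2 fold change was -1.205 (adjusted p = 0.0476 in edgeR's test), and it was not called. Also of the miR-17-92 cluster, miR-17 (1.27, adjusted p = 0.0507), miR-20a (0.98, adjusted p = 0.00175) and miR-92a (-0.37, adjusted p = 0.213) were not called. MiR-92a was its most abundant listed member, with 5270 CPM in control and 4070 CPM in HSA. MiR-93 and miR-25, from the cluster of miR-106b, had log2 fold changes of 0.57 (adjusted p = 0.027) and 0.17 (adjusted p = 0.396). MiR-10b, at 17300 CPM in control and 17700 CPM in HSA, had a log2 fold change of 0.03 (adjusted p = 0.951). The number called from this list ranged from 2 to 9 over the fits without 1 library, with 4, 4, 3 and 2 without control library 1, 2, 4 and 5.

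Another list held 15 miRNAs that are known to restrain fibrosis in the heart, namely the miR-29, miR-30, miR-133 and miR-26 families with miR-24 and miR-101. All 15 were tested, 0 were called higher and 2 were called lower, against 7.11% of all tested miRNAs called lower. The median log2 fold change was -0.82. MiR-30d had 146000 ± 29400 CPM in control and 36900 ± 30200 in HSA (SD, n = 6 each), a log2 fold change of -1.99 (adjusted p = 0.00517). MiR-30c had 33600 ± 4340 CPM in control and 14100 ± 6410 in HSA, a log2 fold change of -1.25 (adjusted p = 0.00486). The call of miR-30c was lost without control library 1, 2, 4 or 5 or HSA library 1, and that of miR-30d without any of these or HSA library 2 or 4. Without HSA library 6, 5 of the list were called lower. MiR-24 and miR-26a were lower in all HSA libraries than in every control library, as were 13.8% of all tested miRNAs. Their log2 fold changes were -1.02 (adjusted p = 0.0172, edgeR) and -0.73 (adjusted p = 0.00635), and neither was called. MiR-26b and miR-101 had log2 fold changes of -0.14 and 0.26. The miR-29 family, which targets collagens, had log2 fold changes of 0.42, 0.45 and 0.28 for miR-29a, miR-29b and miR-29c, and none was called. The 3 miR-133 entries of this list are also on the muscle list, and the list took 38.8 to 47.7% of the counts in control and 11.9 to 42.4% in HSA. When counts were scaled by library size only, 2 of the list were called higher and 1 lower, and the median was -0.35.

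The miRNAs whose level followed that of miR-21 most closely were found by the SD, over the 12 libraries, of their log2 ratio to miR-21, where 0 would be a constant ratio. The lowest SD were those of miR-660 with 0.624, miR-132 with 0.633, miR-146b with 0.702, miR-223 with 0.713, miR-146a with 0.758 and miR-212 with 0.773. The median SD over all 224 was 1.85. The group difference makes up much of this likeness, since all 6 were called higher, with log2 fold changes from 2.11 for miR-660 to 3.49 for miR-223. They were much scarcer than miR-21. MiR-132 had 28.8 to 39.7 CPM in the control libraries and 225, 354.5, 230, 84.0, 139.9 and 74.7 CPM in HSA libraries 1 to 6. MiR-660 had 19.4 to 40.9 CPM in control and 125, 152, 150, 160, 59.3 and 47.5 CPM in HSA. For both, HSA libraries 5 and 6 were among the lower tumors, as for miR-21, while library 4 was the highest for miR-660 and the second lowest for miR-132.

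Within the 6 HSA libraries alone, other miRNAs came first. The SD of the log2 ratio was 0.342 for miR-15a, 0.398 for miR-532 and 0.507 for miR-660, with a median of 1.20 over all tested miRNAs. MiR-15a, which represses BCL2 and cyclins, had 67.8 to 115 CPM in control and 131, 150, 182, 99.6, 71.4 and 84.4 CPM in HSA libraries 1 to 6. Its groups overlapped, and its log2 fold change was 0.44 (adjusted p = 0.174). MiR-532 had a log2 fold change of 0.90 (adjusted p = 0.00707) and was not called. MiRNAs in these likeness values share libraries and scaling factors, and no test was made of them.

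**Figure D4:**
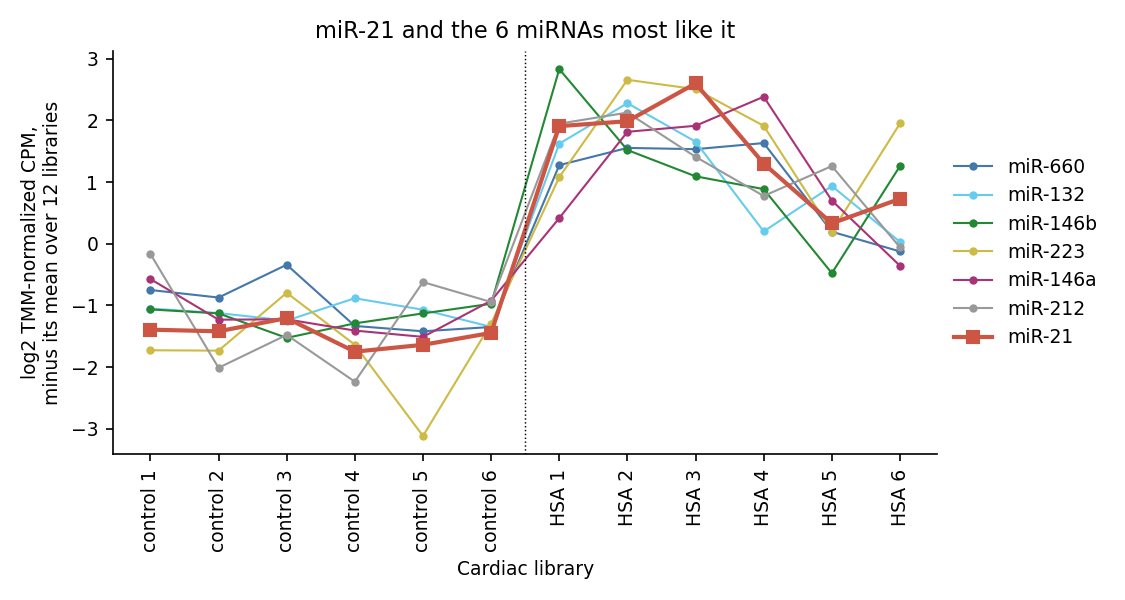
TMM-normalized CPM on the log2 scale, minus the mean of each miRNA over the 12 libraries, for miR-21 (thick red line) and the 6 miRNAs with the most constant ratio to it. Each point is 1 library. All 7 lines are higher in HSA than in control on average, and HSA library 5 or 6 is the lowest tumor for all 7.

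A miRNA that takes a large share of a library lowers the CPM of all others, since CPM adds up to a constant. The share of miR-21 lowered the log2 CPM of every other miRNA by 0.0068 to 0.0098 in the control libraries. In HSA libraries 1 to 6 it lowered them by 0.12, 0.25, 0.21, 0.08, 0.04 and 0.04. The difference between the group means was -0.11 on the log2 scale, and that between the group medians was -0.092. Through the share of miR-21 alone, a miRNA with an equal amount in both groups would appear 7.64% lower in HSA by CPM, taking the means. For the deposited CPM, with its larger totals, the difference between the group means was -0.087. MiR-122 gave a difference of -0.074 between the group means. It lowered the others by 0.44 in library 3, and the difference by group medians was -0.0006. The muscle miRNAs worked the other way, at 0.18, since they took a larger share in control.

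**Figure D5:**
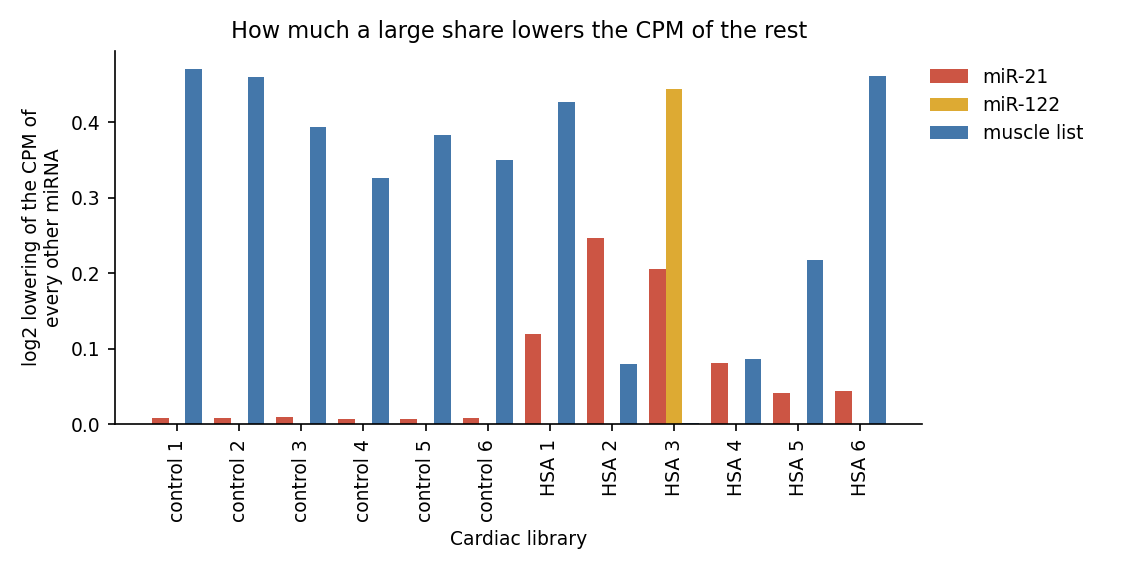
Amount by which the share of miR-21, of miR-122 and of the muscle miRNAs lowered the log2 CPM of all other miRNAs, as bars from 0 in each of the 12 libraries. MiR-21 lowered it by under 0.01 in every control library and by 0.04 to 0.25 in HSA, while the muscle miRNAs lowered it by more in control than in HSA on average.

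The effect on the calls was computed by scaling to library size only, as CPM does. With miR-21 in the total, 70 miRNAs were called, 31.1% of those tested. Of these, 65 were higher and 5 lower, 28.9% and 2.22% of those tested, so 92.9% of the calls were higher against 70.4% with TMM. When miR-21 was taken out of the counts, 77 of 224 were called, 34.4%, with 72 higher (32.1%) and 5 lower (2.23%). The log2 fold changes of the other 224 moved up by a median of 0.13 (range 0.04 to 0.20). The 8 miRNAs whose call changed were all gained and all higher, namely miR-383, miR-17, miR-455, miR-497, miR-1839, miR-8884, miR-452 and miR-339. MiR-17 went from a log2 fold change of 2.00 (adjusted p = 0.0123) to 2.15 (adjusted p = 0.00928) in edgeR's test, and with TMM it was 1.27 (adjusted p = 0.0507). MiR-339 passed by its fold, from 0.91 to 1.04. MiR-8884, one of the normalizers, went from 1.09 to 1.23, against 0.45 with TMM.

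With TMM factors the same step changed less. Leaving miR-21 out moved the other log2 fold changes by a median of 0.003 (range -0.04 to 0.03), and 56 miRNAs were called in place of 53 besides miR-21. The 3 calls gained were miR-1249, miR-500 and miR-95, each of which was near a threshold in both fits, with miR-1249 at an adjusted p of 0.0101 and then 0.00925. The scalings themselves differed by more. With miR-21 in the counts, the median log2 fold change of the other 224 miRNAs was 0.92 by library size and 0.28 by TMM, and with miR-21 left out it was 1.05 and 0.28.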

How the data were processed

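Small RNA libraries of FFPE heart tissue were assigned to HSA or control from their titles. Per the labels and the methods of the study, the authors trimmed adapters, discarded reads under 17 nt, aligned the rest to CanFam3.1 with Bowtie and counted mature miRNAs. The deposited values are raw counts for each pair of mature miRNA and precursor. A further deposited table holds CPM, scaled over all 517 entries. Recomputing the CPM gave differences of at most 0.00499. The labels and the methods of the study name different library kits. No column was left out.

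Of 48 mature miRNAs with several entries, the entry with the highest count was kept, leaving 453, of which 320 had a read. MiR-133a and miR-133c, and miR-103 and miR-107, had counts within 1% of each other in every library and cannot be told apart. Groups were compared by edgeR 4.0.16 under R 4.3.3 (TMM factors, its default filter on low counts, quasi-likelihood F test). Standard errors were obtained by dividing each log2 fold change by the root of its F value. The thresholds for a call were those of the study's methods. Single values were tested with two-sided exact permutation tests (Python 3.11.15, scipy 1.17.1). The 4 ratios were formed from the counts themselves, and the ratios to each tested miRNA from counts plus 0.5. Alternatives included DESeq2 1.42.0 and limma 3.58.1. The fits of edgeR, DESeq2 and limma were tried on simulated counts with changes of equal size in both directions.

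MiR-21 and all lists were chosen with earlier results of these data known. Named miRNAs are those on the lists, the most abundant ones, those most like miR-21 and those whose call changed. A planned comparison with miRNAs sharing its seed was not run, as no sequences were used. The p-values set the difference between the groups against the spread between these dogs.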

Additional observations from a re-analysis of the deposited data

Results flagged for a closer look

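In groups of 6 libraries, a value was set apart when its gap to the nearest other library was too large a part of the group's range in Dixon's test at the 95% level. Among 34 groups of values 6 were set apart, and chance alone sets apart about 1 in 20. None was a level, share or ratio of miR-21. The total count of HSA library 6 was 7254770, the highest of its group. The TMM factor of HSA library 2 was 2.07, and this library also had the highest share of miR-21. HSA library 5 had the highest shares of mesenchymal miRNAs, 19.0%, and of epithelial miRNAs, 0.485%, and the lowest share of miR-21 among the tumors. The hepatocyte miRNAs took 28.1% of HSA library 3. The erythroid miRNAs took 2.24% in control library 2, the lowest of its group.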

How the results depend on the processing

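The log2 fold change of miR-21 kept its direction and its call in all 17 alternatives that changed the fit, from 2.95 to 3.82, and in all 12 fits that left out 1 library, from 2.83 to 3.30 with adjusted p up to 0.00273. The difference in share lay between 5.41 and 8.27 percentage points with other totals and was 3.53 on the log2 scale. It lay between 5.94 and 8.51 percentage points when 1 library was left out. The number of miRNAs called, 54, fell to 11 in a test against a log2 fold change of 1. It ranged from 21 to 63 when 1 library was left out, with 27, 30, 26, 21 and 35 without control library 1, 2, 4, 5 and 6. With the replicate block it was 11, and miR-21 had a log2 fold change of 2.95 (adjusted p = 0.00275, edgeR), but the HSA and control libraries came from different dogs. The deviations of libraries with the same number correlated by -0.28 to 0.08. Libraries with different numbers were not compared, so these values alone cannot show whether the numbers pair the dogs. The effect on the CPM of other miRNAs turned to 0.18 when the muscle miRNAs took the place of miR-21. Nearly equal entries counted once, TMM factors with miR-21 left out, the deposited total for the effect on CPM and the fits without HSA libraries 3 and 5 were chosen after seeing the data, and 39 miRNAs were called without those libraries. The causes of these changes were not tested. With 6 dogs a group the exact test cannot go below 0.00216, and depth did not limit miR-21.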
